A study of Drosophila melanogaster with 19 samples.

Results

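The sites described here are the weaker MSL2 peaks of the male X chromosome that lie inside gene bodies and were found in both peak lists of the series. They were chosen by measured values of the wt list. The wt list has 1615 X peaks, and the 200 with the highest −log10 p were left out. Of the remaining 1415 peaks, 1036 (73.2%) shared 1 base or more with a peak of the M1[wt] list. From these, 390 were dropped because the summit lay within 500 bases of the start or end of a protein-coding or lncRNA gene, and 27 because the summit lay outside genes. The 619 peaks left are called gene-body sites, out of 3799 peaks in the wt list and 3944 in the M1[wt] list. Strength, wt rank, overlap and summit position in wt males are thus what the choice rested on, and they are given as a description only.

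MSL2 is the male-specific RING-finger subunit of the dosage compensation complex of Drosophila melanogaster. The complex also holds MSL1, MSL3, the acetyltransferase MOF, the helicase MLE and the noncoding roX RNAs. It first binds a limited set of high-affinity sites on the X chromosome, many of which carry GA-rich recognition elements, and is then found over the bodies of active X-linked genes, where MOF acetylates histone H4 at lysine 16. The weaker peaks inside genes belong to a region where this wider distribution is known from other work.

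Chromatin of whole adult flies aged 3 days was immunoprecipitated with rabbit antibodies to MSL2. The groups are males of genotype M1[wt] and males of genotype wt, both labelled as strain Oregon-R, with 1 listed sample in each of the 2 groups used out of 19 samples in the series. The labels name M1[wt] only by its genotype, and what else the flies carry is not stated in them. Preimmune rabbit IgG served as the control, and its own signal was not analysed here. The series lists this control for wt males and wt females, and none for M1[wt] flies. Each sample pools many flies and all their tissues, so binding in fewer cells and weaker binding per cell cannot be told apart. The lists give 2 replicate calls per peak, each with its −log10 p, and strength here means the smaller of these values. It is not stated whether each call had a library of its own. Read depth is unknown and strength grows with it, so the strengths of the lists were set side by side without a fold change. With 1 sample per group, no test between the lines was possible. Shares carry exact Clopper-Pearson 95% intervals and medians carry order-statistic 95% intervals, which cover counting error only, since neighbouring peaks are not independent.

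Most gene-body sites were weak in both lists, and a small number had strong M1[wt] partners. Their strength ran from 9.99 to 3589 in M1[wt] males, with a median of 38.7 (34.8 to 44.0), and from 8.04 to 136 in wt males, with a median of 21.4 (20.0 to 22.8). The wt maximum was set by the choice: the weakest of the 200 peaks left out had a strength of 138, and the highest kept X peak 136. No such ceiling held in the M1[wt] list, where 36 of the 619 sites (5.82%, 4.11 to 7.96%) had a partner among the 200 strongest X peaks of that list, those of 353 or more. Some of these sites share a partner, and with each of the 590 distinct partners counted once the share was 5.42%. "Weaker" is therefore a statement about the wt list. At 14 of the 36 sites the partner also covered another wt peak, so its strength can belong to that neighbour. Across the 619 sites strength in M1[wt] males and in wt males had a Spearman correlation of 0.65, and the log10 strengths a Pearson correlation of 0.62. The sites share their libraries, and the choice cut off the upper end of the wt range, so this is a description.

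**Figure D1:**
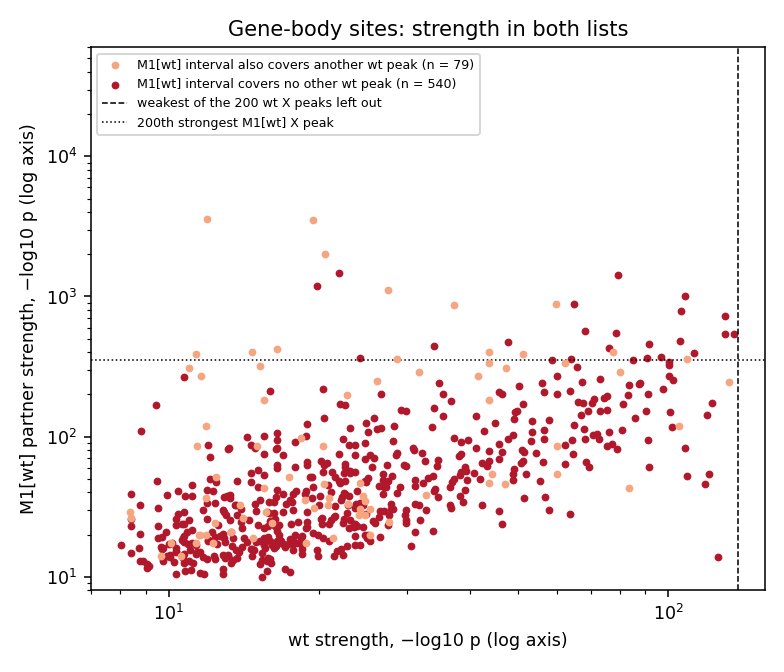
Each point is a gene-body site (n = 619), with the strength (−log10 p) of its wt peak on the horizontal log axis and of its M1[wt] partner on the vertical log axis. The dashed line marks the weakest wt peak left out (138) and the dotted line the 200th strongest M1[wt] X peak (353); 36 sites lie on or above the dotted line, and 14 of these are in the paler colour, which marks sites whose M1[wt] interval also covers another wt peak.

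Of the sites with the best mean rank in both lists, ranked among the 619, the first was in inaE, which encodes a diacylglycerol lipase of phototransduction, at X:13805439-13805908. It had strengths of 720 in M1[wt] males (replicate calls 720 and 799) and 130 in wt males (167 and 130), with summits 16 bases apart and 5757 bases from the nearest gene end. Next came Ubr3, the gene of an E3 ubiquitin ligase, at X:7936887-7938997, with 541 in M1[wt] males (541 and 590) and 136 in wt males (187 and 136). The site in Tlk, which encodes the Tousled-like kinase, at X:3780859-3781253, had 544 in M1[wt] males (544 and 628) and 130 in wt males (159 and 130). At these 3 sites the calls within each list were less than 2 times apart.

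The site in nocte, a gene needed for temperature entrainment of the clock, at X:10463059-10465215, had 1004 in M1[wt] males (1004 and 1015) and 108 in wt males, where the replicate calls were 575 and 108. The site in sw, the gene of the dynein intermediate chain, at X:20230817-20232079, had 1430 in M1[wt] males (1430 and 1568) and 79.3 in wt males, where the calls were 460 and 79.3. At these sites the wt calls stood far apart, and the lower of them put the site below the limit. Gaps this large were uncommon: the calls were over 2 times apart at 8 sites in M1[wt] males (1.29%, 0.560 to 2.53%) and at 31 sites in wt males (5.01%, 3.43 to 7.03%). The median ratio of the higher to the lower call was 1.18 in M1[wt] males and 1.22 in wt males. The first call was the higher at 162 sites in M1[wt] males (26.2%, 22.7 to 29.8%) and at 471 in wt males (76.1%, 72.5 to 79.4%). Strength, the lower call, was thus mostly the first call in M1[wt] males and the second in wt males.

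The remaining 5 of the 10 best-ranked sites lay where CG15717 and MFS10 overlap (794 in M1[wt] males, 106 in wt males), in Slc25A46a, of the mitochondrial carrier family (479 in M1[wt] males, 105 in wt males), in Sec16, which organises the exit sites of the endoplasmic reticulum (398 in M1[wt] males, 112 in wt males), in Smr, the gene of the corepressor SMRTER (360 in M1[wt] males, 109 in wt males), and in Tomosyn, a regulator of vesicle release (458 in M1[wt] males, 91.6 in wt males). The summits of 8 of these 10 pairs lay between 4 and 16 bases apart. The exceptions were Ubr3, at 223 bases, and sw, at 676 bases. The M1[wt] interval of the Smr site also covered another wt peak.

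The limits of the choice passed through a continuous range. Just inside the strength limit lay Ubr3 (136 in wt males), IntS6, an Integrator subunit gene (132), Tlk (130), inaE (130) and CG11178 (126). The nearest shared gene-body peaks outside it were at Lcch3 and Ranbp16 (138), fs(1)h (148), sgg (149), CG14435 (149) and ZAP3 (154). Just over the distance limit were summits 501 bases from a gene end in CG14194, 501 in CG1695 and 502 in PhKgamma, and just under it were summits 496 bases away in CG7065, 496 in Lint-1 and 495 in Rbm13.

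At most sites the wt and M1[wt] summits lay close together. The median distance between the summits of a pair was 33 bases (27 to 39), and 440 of 619 pairs (71.1%, 67.3 to 74.6%) lay within 100 bases of each other. Within 20 bases lay 232 pairs (37.5%, 33.7 to 41.4%), and within 1000 bases 575 (92.9%, 90.6 to 94.8%). The summits of the wt replicate calls lay closer, a median of 16 bases (13 to 18) apart at these sites. The M1[wt] summit itself lay inside a gene and over 500 bases from every gene end at 582 sites (94.0%, 91.9 to 95.8%). The choice required this of the wt summit alone, but the pairing by overlap favours it, since 84.8% of pairs had summits within 500 bases. The share was 95.4% (93.3 to 97.1%) among the 527 shared autosomal gene-body peaks. When the rule was applied with the lists exchanged, it gave 560 M1[wt] peaks, and 547 of the 619 gene-body sites had a partner among them.

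The distance between summits went with the width of the wt interval. Of the 392 sites under 1000 bases wide, 82.7% (78.5 to 86.3%) had summits within 100 bases of each other. The share was 53.0% (45.1 to 60.9%) among 164 sites of 1000 to 2000 bases and 46.0% (33.4 to 59.1%) among 63 wider ones. With the sites cut into 4 groups by wt strength, the share lying that close was 67.1%, 67.1% and 66.2% in the lower 3 groups, from weakest to strongest, and 83.9% (77.1 to 89.3%) in the strongest, of 155 sites at 38.0 or more. It was thus level over the lower groups and higher only in the top one.

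Like classes of peaks were set beside the gene-body sites on the same measure. Within 100 bases lay 71.1% (67.3 to 74.6%) of the gene-body pairs, 76.9% (72.4 to 81.0%) of 390 weaker shared X pairs at gene ends and 86.0% (82.7 to 88.8%) of 527 shared autosomal pairs in gene bodies, which include their strongest peaks. Among narrow peaks, those under 1000 bases wide, the shares were 82.7% (78.5 to 86.3%), 84.2% (79.2 to 88.4%) and 88.6% (85.1 to 91.5%). Between 1000 and 2000 bases they were 53.0% (45.1 to 60.9%), 64.5% (53.9 to 74.2%) and 77.2% (68.4 to 84.5%). Over 2000 bases they were 46.0% (33.4 to 59.1%) of 63, 56.8% (39.5 to 72.9%) of 37 and 80.0% (44.4 to 97.5%) of 10. The intervals of gene-body sites and autosomal sites did not overlap between 1000 and 2000 bases, and overlapped in the narrower and the wider class. No test was run, since peaks of a list are not replicates.

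**Figure D2:**
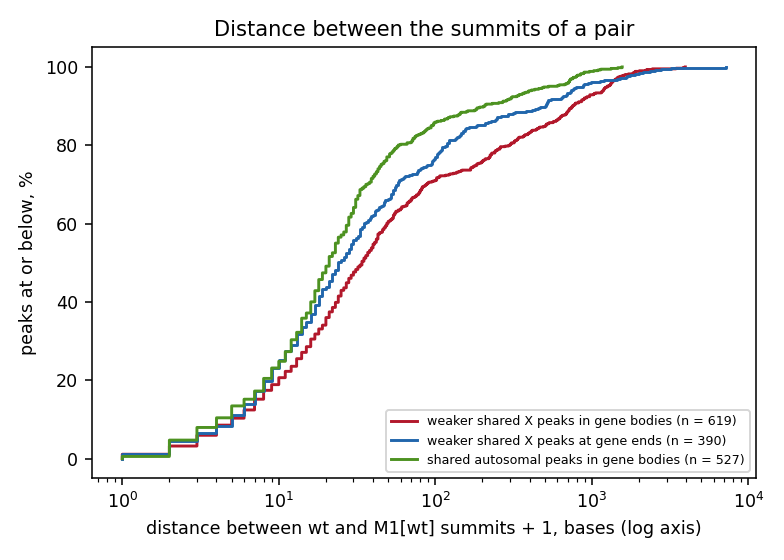
The horizontal log axis gives the distance between the wt and M1[wt] summits of a pair, plus 1, in bases, and the vertical axis the percentage of pairs at or below it, for gene-body sites, weaker shared X peaks at gene ends and shared autosomal peaks in gene bodies. At 100 bases the curves stand near 71.1%, 76.9% and 86.0%.

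The M1[wt] intervals were mostly wider than the wt intervals. The median width of the sites was 1012 bases (930 to 1083) in M1[wt] males and 799 bases (733 to 843) in wt males, and the M1[wt] interval was the wider of the pair at 533 sites (86.1%, 83.1 to 88.7%). The M1[wt] interval was also the wider one in most pairs of the like classes, 75.6% (71.1 to 79.8%) at gene ends and 79.3% (75.6 to 82.7%) on autosomes. The depth of the libraries, on which interval width can rest, is unknown, and its part was not tested. In wt males the weaker shared X peaks at gene ends had a median width of 757.5 bases (664 to 801), and shared autosomal gene-body peaks one of 634 bases (596 to 686). Wt width and wt strength were only loosely related among the gene-body sites (Spearman 0.19, n = 619).

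Some M1[wt] intervals took in several wt peaks. The 619 sites had 590 distinct partners, and the M1[wt] interval covered at least 1 other wt peak at 79 sites (12.8%, 10.2 to 15.7%). At those 79 sites the M1[wt] intervals had a median width of 2648 bases, and the wt summit lay a median of 895 bases (698 to 1148) from the M1[wt] summit. At the other 540 sites the median M1[wt] width was 897.5 bases and the median distance 27 bases (23 to 32). A partner strength at the 79 sites can thus belong to a neighbouring peak.

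This bears on the sites with the strongest partners. Of the 36 with a partner among the 200 strongest M1[wt] X peaks, 14 (38.9%, 23.1 to 56.5%) had a partner that covered another wt peak, and at 6 of them that other peak was among the 200 left out. The 3 highest partner values were of this kind. The site in Gbeta13F, the gene of a G protein beta subunit, at X:15861572-15862824, had 3589 in M1[wt] males and 11.9 in wt males, with summits 1598 bases apart. The site in CrebB, the gene of a cAMP-responsive transcription factor, at X:18375757-18376582, had 3527 in M1[wt] males and 19.4 in wt males, with summits 1446 bases apart, and the site in Top1, the gene of DNA topoisomerase I, at X:15321853-15322803, had 2006 in M1[wt] males and 20.6 in wt males, with summits 3837 bases apart.

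The other 22 had an M1[wt] interval that covered no other wt peak. Among them was the site in HUWE1, the gene of a large E3 ubiquitin ligase. Its wt interval, X:15721637-15731352, was the widest of the 619, at 9716 bases. It had a strength of 1183 in M1[wt] males (replicate calls 1183 and 1420) and 19.8 in wt males (28.6 and 19.8), although the summits lay 3 bases apart. In para, the gene of the voltage-gated sodium channel, the site X:16458625-16458890 had 881 in M1[wt] males (881 and 1010) and 64.7 in wt males (64.7 and 65.2), with summits 3 bases apart. Pi4KIIIalpha, which encodes a phosphatidylinositol 4-kinase, had 1480 in M1[wt] males (1480 and 1759) and 21.9 in wt males (37.4 and 21.9). Its summits lay 1205 bases apart in an M1[wt] interval of 3914 bases. The M1[wt] summit, at 2626828, fell outside the wt interval X:2627630-2628297. The M1[wt] strength there can thus belong to a position without a wt peak. The replicate calls within a list stood much closer to each other here than the lists did, but what set the lists apart at these sites was not tested.

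Ranked among the 619 sites, the pairs that differed most in the direction of M1[wt] males were in Gbeta13F (rank 1 in M1[wt] males, 527 in wt males), mamo, a zinc-finger transcription factor gene (28 in M1[wt], 546 in wt), CanA-14F, a calcineurin A gene (52 in M1[wt], 567 in wt), CG43740 (91 in M1[wt], 603 in wt) and Vav, a guanine nucleotide exchange factor gene (44 in M1[wt], 556 in wt). The partners in Gbeta13F, mamo and Vav also cover another wt peak, so their ranks can rest on a neighbour. In mamo the M1[wt] summit lay 12 bases from another gene-body site (51.3 in wt males) and 927 bases from this one (11.3 in wt males). The opposite was seen in CG11178 (584 in M1[wt], 5 in wt), hop, the JAK kinase gene (539 in M1[wt], 192 in wt), bves (391 in M1[wt], 76 in wt), Hsp60A, a mitochondrial chaperonin gene (433 in M1[wt], 120 in wt), and CG5445 (372 in M1[wt], 87 in wt). The CG11178 site, X:13606106-13607507, had 13.8 in M1[wt] males (13.8 and 21.9) and 126 in wt males (170 and 126), with both summits at the same base.

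By wt width, the widest intervals were found in HUWE1 and then in Ranbp21, the exportin-5 gene (5640 bases in M1[wt] males, 5985 in wt males), Usp16-45, a ubiquitin protease gene (1335 in M1[wt], 4517 in wt), Rok (4539 in M1[wt], 4467 in wt), and nej, the gene of the acetyltransferase CBP (5127 in M1[wt], 4375 in wt). The order differed by M1[wt] width, where the widest partner, 7176 bases, was at CG2120. Summits were farthest apart in cv (3957 bases), Top1 (3837), the stretch shared by bbx and waw (3449), Rok (2432) and rudhira (2259). The M1[wt] intervals at these sites were 5801, 4598, 4944, 4539 and 3830 bases wide.

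The sites were spread along the X and kept no fixed distance from the strongest peaks. Only positions inside a gene and over 500 bases from every gene end could hold one, which came to 14.8 Mb of the X. Over these eligible bases the density was 41.7 sites per Mb (exact Poisson interval 38.5 to 45.2), or 49.6 per Mb (46.0 to 53.3) with the 116 shared gene-body peaks among the 200 strongest added, against 8.56 per Mb (7.84 to 9.32) for shared autosomal gene-body peaks of any strength over 61.6 Mb. In stretches of 2 Mb from the X tip to 20 Mb the density lay between 30.6 and 55.0 sites per Mb of eligible bases. The last 2 stretches, from 20000001 to 24000000, held 26 and 8 sites, at 27.1 and 20.5 per Mb.

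The median distance from a gene-body site to the nearest of the 200 strongest wt X summits was 13997 bases (11773 to 16236). It was 15353.5 bases (13359 to 18552) for the weaker shared X peaks at gene ends and 11925 bases (9265 to 16607) for 235 weaker wt X peaks in gene bodies without an M1[wt] peak. These intervals overlapped. Close to the strongest summits the gene-end peaks were fewer. Within 2000 bases of one lay 58 gene-body sites (9.37%, 7.19 to 11.9%) and 14 of the gene-end peaks (3.59%, 1.98 to 5.95%). Of the peaks without a counterpart 15 did (6.38%, 3.62 to 10.3%), an interval that overlaps both others. A gene-end summit is bound to a fixed place, so its distances are limited by where genes end. The part of this limit in the difference within 2000 bases was not tested. Farther out the intervals of the classes overlapped. Within 10000 bases lay 40.9% (37.0 to 44.9%) of gene-body sites, 38.5% (33.6 to 43.5%) of gene-end peaks and 45.1% (38.6 to 51.7%) of peaks without a counterpart. At the far end, 519 gene-body sites (83.8%, 80.7 to 86.7%) had a strong summit within 50000 bases. The shares there were 77.9% (73.5 to 82.0%) at gene ends and 86.0% (80.8 to 90.1%) without a counterpart.

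**Figure D3:**
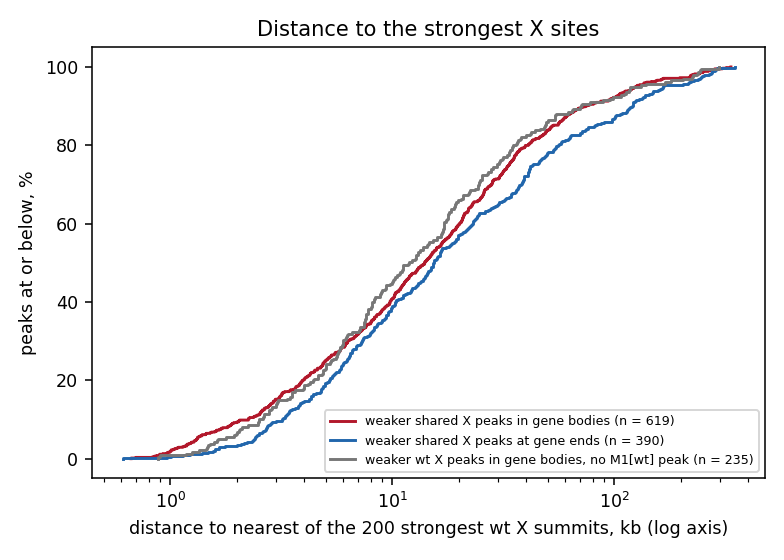
The horizontal log axis gives the distance in kb from a summit to the nearest of the 200 strongest wt X summits, and the vertical axis the percentage of peaks at or below it, for gene-body sites, weaker shared X peaks at gene ends and weaker wt X peaks in gene bodies without an M1[wt] peak. The medians are 13997, 15353.5 and 11925 bases, and the curves run close together over most of the range.

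Gene-body sites often had near neighbours. The next wt X summit of any strength lay a median of 1807 bases away (1662 to 1905), and 351 sites (56.7%, 52.7 to 60.6%) had one within 2000 bases. Within their genes the summits lay a median of 1676 bases (1453 to 1900) from the nearest gene end, and 110 sites (17.8%, 14.8 to 21.0%) were over 5000 bases from it. The deepest was in mamo, 44415 bases from any gene end. Of the 619 summits, 617 lay in a protein-coding gene and 57 (9.21%, 7.05 to 11.8%) in overlapping genes, which cannot be told apart here.

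Together the sites marked 417 X-linked genes, 409 of them protein-coding and 8 lncRNA genes. This was 22% of the 1898 X genes with at least 1 eligible base. A single site was held by 265 genes, while 93 held 2, 29 held 3, 13 held 4 and 17 held 5 or more. Among the 417 genes, 81 (19.4%, 15.7 to 23.6%) also held a summit of the 200 strongest, compared with 95 of the 1481 eligible genes without a site (6.41%, 5.22 to 7.78%). Genes with a site were longer, with a median length of 7201 bases, against 2630 in eligible genes without one. The shares that held a strong summit were not matched for gene length, and the part of length in them was not tested. No other wt X summit of the strong, gene-end or unshared gene-body kinds lay in 223 of the 417 genes.

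Longer genes held a site more often, but the density of sites was lower in them. A site was held by 7.27% (5.52 to 9.35%) of 757 eligible genes of 1 to 2.5 kb, 36.8% (31.0 to 42.8%) of 272 genes of 5 to 10 kb and 39.0% (28.0 to 50.8%) of 77 genes over 50 kb. Per 100 kb of eligible bases, genes of 1 to 2.5 kb had 11.3 sites (exact Poisson interval 8.54 to 14.7) and those of 5 to 10 kb 9.74 (8.26 to 11.4). Genes of 10 to 25 kb had 6.42 (5.57 to 7.35), those of 25 to 50 kb 2.34 (1.80 to 2.99) and those over 50 kb 1.05 (0.827 to 1.31). The longest X genes were thus sparsely covered for their size. A site or base in overlapping genes was counted in each of them, also where they fell in different length classes.

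**Figure D4:**
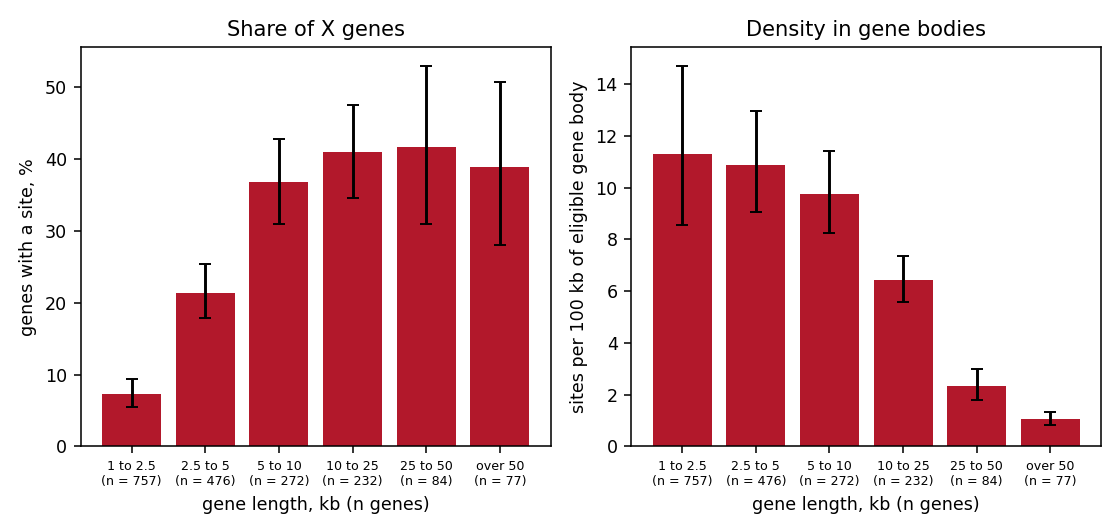
Left, the percentage of X genes with an eligible base that hold a gene-body site, by gene length, with exact 95% intervals; right, sites per 100 kb of eligible bases in the same genes, with exact Poisson 95% intervals. The share is 7.27% in genes of 1 to 2.5 kb and about level from 36.8% to 41.7% from 5 kb upwards. The density is 11.3 in the shortest genes and 1.05 in those over 50 kb. Sites and bases in overlapping genes count in each gene.

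The gene with the most sites was rudhira, which encodes a cytoskeletal protein related to BCAS3, at X:11816898-11837460. Its 8 sites had strengths from 13.4 to 180 in M1[wt] males and from 11.4 to 64.6 in wt males. In M1[wt] males 3 of the 8 shared an interval of 3830 bases. It also held 1 of the 200 strongest summits and 1 summit within 500 bases of a gene end.

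Genes with 6 sites each were RhoGAPp190, Tlk, csw and the long noncoding RNA gene lncRNA:CR44357. RhoGAPp190 (X:17639147-17652562) had strengths from 16.7 to 271 in M1[wt] males and from 11.5 to 100.1 in wt males. Tlk (X:3720007-3789770) had 23.5 to 544 in M1[wt] males and 10.3 to 130 in wt males, and csw, the gene of the SHP2-type tyrosine phosphatase of receptor signalling (X:2094234-2115701), had 24.3 to 152 in M1[wt] males and 10.4 to 72.9 in wt males. Neither Tlk nor csw held any of the 200 strongest summits. Of the 6 sites in lncRNA:CR44357, 5 also lay in CG1677, which overlaps it.

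The genes with 5 sites were CG14200, CG14434, CG1677, CrebB, Hr4, Smr, Tomosyn, Vav, lncRNA:CR32773, nej, prage and tay. In Hr4, a nuclear receptor gene of the ecdysone response, the strengths ran from 17.4 to 63.8 in M1[wt] males and from 10.1 to 119 in wt males, and the strongest wt site was not the strongest one in M1[wt] males (46.0). In nej they ran from 26.1 to 209 in M1[wt] males and from 8.39 to 54.4 in wt males, and 4 further summits of the gene were among the 200 strongest. In Smr they ran from 19.9 to 360 in M1[wt] males and from 15.5 to 109 in wt males, beside 3 of the 200 strongest. CG14200, CG14434, Hr4, prage and tay held none of the 200 strongest.

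Gene groups were read against 22.4%, the share of the 1823 eligible X protein-coding genes that held a gene-body site, and against gene length. The lists were chosen with earlier results of these data known, so their shares are a description only. Of 15 eligible genes of chromatin and transcription coregulators, 9 held one (60.0%, exact interval 32.3 to 83.7%), with 26 sites in all. Their median length was 8638 bases, and 36.8% of genes of 5 to 10 kb held a site, a share inside the list's interval. The 9 were nej and Smr (above), HDAC4 (3 sites) and HDAC6, both deacetylase genes, ph-p and ph-d, Polycomb group genes, fs(1)h, a BET bromodomain gene, wapl, the cohesin release factor gene, and Top1. In HDAC6 the 3 sites had 108, 23.7 and 19.8 in M1[wt] males and 76.0, 23.4 and 17.9 in wt males. In wapl the 2 sites had 241 and 60.3 in M1[wt] males, against 55.9 and 22.5 in wt males, and in ph-p they had 363 and 80.9 in M1[wt] males, against 90.8 and 31.0 in wt males. The 3 sites in fs(1)h had 54.6, 37.7 and 18.1 in M1[wt] males and 23.1, 22.9 and 15.2 in wt males. No site lay in mof, trr, Set2, CoRest, Bap60 or Hmt4-20.

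Of 6 genes of learning and phototransduction signalling, 5 held a site (83.3%, 35.9 to 99.6%), and their median length was 40689.5 bases. Of all eligible genes of 25 to 50 kb, 41.7% held a site, which lies inside this list's interval. These were inaE (above), rdgA, a diacylglycerol kinase gene, rdgB, a phosphatidylinositol transfer protein gene, norpA, the phospholipase C gene, and rut, an adenylyl cyclase gene. In rdgA the 2 sites had 195 and 14.3 in M1[wt] males and 75.3 and 22.3 in wt males. The rdgB sites had 13.96 and 12.9 in M1[wt] males, against 12.3 and 15.7 in wt males. The norpA site had 62.3 in M1[wt] males and 18.9 in wt males, and the rut site 15.0 in M1[wt] males and 13.8 in wt males. The phosphodiesterase gene dnc held none. For lists of this size the intervals are wide.

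The 8 eligible signalling genes of the receptor and kinase list had a median length of 15907.5 bases. Of all eligible genes of 10 to 25 kb, 40.9% held a site. In the list 4 of the 8 held one (50.0%, 15.7 to 84.3%, which includes that share), with 12 sites. Besides csw they were Raf, the MAP kinase kinase kinase gene (237 and 74.8 in M1[wt] males, 87.4 and 38.5 in wt males), hep, a kinase gene of the JNK pathway, and Ptp4E, a receptor tyrosine phosphatase gene (37.2 in M1[wt] males, 16.4 in wt males). In hep the 3 sites had 41.5, 29.3 and 17.3 in M1[wt] males and 39.2, 26.4 and 11.1 in wt males. Dsor1, sev, Rala and Ptp10D held none. Of the 3 Wingless pathway genes, arm, the Drosophila beta-catenin, held 4 sites (from 17.1 to 200.0 in M1[wt] males and from 11.5 to 91.3 in wt males), sgg, the GSK3 kinase gene, held 2 (137 and 19.2 in M1[wt] males, 25.7 and 9.67 in wt males), and dsh none. Of 3 Notch pathway genes, N had 1 site (25.8 in M1[wt] males, 8.40 in wt males), sno had 1 (74.1 in M1[wt] males, 16.9 in wt males) and dx none. The Wingless and Notch lists, of 3 genes each, were not read against gene length.

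Genes of adhesion, polarity and the cytoskeleton held a site in 7 of 17 (41.2%, 18.4 to 67.1%). Their median length was 37798 bases, and 41.7% of all eligible genes of 25 to 50 kb held a site. Fas2, a neural adhesion gene, had the strongest, with 313 in M1[wt] males and 65.5 in wt males. The sdt sites had 169 and 17.8 in M1[wt] males, against 22.5 and 16.8 in wt males. The Act5C site had 99.6 in M1[wt] males and 14.3 in wt males, and the Nrg site 60.7 in M1[wt] males and 25.6 in wt males. The sites in dlg1 (34.3 and 28.8 in M1[wt] males, 17.7 and 12.9 in wt males), mys (23.1 in M1[wt] males, 16.3 in wt males) and baz (13.2 in M1[wt] males, 13.5 in wt males) were weak in both lists. The 13 sequence-specific transcription factor genes had a median length of 18539 bases. Of all eligible genes of 10 to 25 kb, 40.9% held a site. Among the 13, 4 held one (30.8%, 9.09 to 61.4%), an interval that includes that share. They were Mnt (254, 135 and 62.5 in M1[wt] males, 102, 49.2 and 20.4 in wt males), br, an early ecdysone response gene (200.1 in M1[wt] males, 60.0 in wt males), sd, the TEAD factor gene (46.6 and 23.6 in M1[wt] males, 22.0 and 17.5 in wt males), and hang (47.3 and 12.8 in M1[wt] males, 24.8 and 10.2 in wt males).

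Few genes of the channel and ribosomal protein lists held a site, but the intervals of both lists include 22.4%. Of 15 channel and synapse genes only 2 held a site (13.3%, 1.66 to 40.5%), although their median length was 24185 bases and 40.9% of all eligible genes of 10 to 25 kb held one. They were para (above) and Sh, the Shaker potassium channel gene (25.7 in M1[wt] males, 11.9 in wt males). The interval of this list includes 22.4%, so the count does not set it apart from genes at large. The interval ends at 40.5%, just below the 40.9% of genes in that length class, and this difference was not tested. Of 10 cytosolic ribosomal protein genes with an eligible base, 1 held a site (10.0%, 0.253 to 44.5%). It was RpS10b (13.0 in M1[wt] males, 8.88 in wt males). These genes are short (median 1922.5 bases), and 7.27% of all eligible genes of 1 to 2.5 kb held a site. The list's interval includes that share, so the count does not set it apart from genes of like length. The genes of the 2 dosage compensation RNAs, lncRNA:roX1 and lncRNA:roX2, held no gene-body site (0%, 0 to 84.2%). The choice left out the strongest wt X peaks and summits near gene ends. The lack of a gene-body site therefore does not show that MSL2 was absent from these genes.

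**Figure D5:**
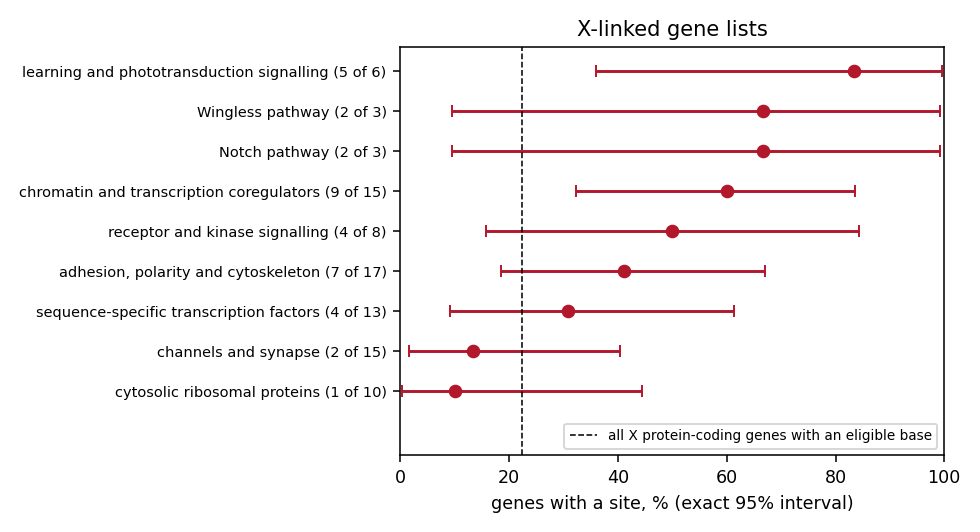
Each row is a list of X-linked genes with the number that held a gene-body site of those with an eligible base, the point is that share in percent and the bar its exact 95% interval. The dashed line marks 22.4%, the share over all eligible X protein-coding genes; the intervals of the learning and phototransduction list and of the coregulator list lie above it, and the other 7 include it. Both of those intervals include the share over genes in the length class of the list's median (41.7% and 36.8%). The interval of the channel and synapse list ends at 40.5%, just below the share in its length class (40.9%). The lists were chosen with earlier results of these data known, so the comparison is a description only. The list of 2 roX genes is not drawn.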

How the data were processed

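Chromatin immunoprecipitation sequencing for MSL2 in M1[wt] and wt adult males gave the 2 peak lists used. Tools named in the submitters' processing notes, without a role, are MACS2, deepTools, Picard, Bowtie2 and cutadapt, and the builds named are dm6 and dm3. How peaks were called is not stated further. The lists the authors deposited have 20 columns in the layout of an irreproducible discovery rate (IDR) comparison of 2 replicate calls. The −log10 p the authors deposited for a peak is the lower of its replicate calls in all 3944 and 3799 rows. Other deposited columns hold a score and, for local as well as global IDR, its −log10. Both lists stop at a global IDR of 0.05. Their fold and q columns hold a placeholder. What the replicate calls are is not stated.

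Genes came from a RefSeq table of Release 6, which has no strand or exons, and coordinates are 1-based in that build. The partner of a wt peak is the strongest M1[wt] peak that overlaps it. Python 3.11.15, pandas 2.3.3 and scipy 1.17.1 were used. The rule was tested on simulated data. The sites, gene lists and measures were chosen with earlier results of these data known. Genes were named by rule: the 10 best mean ranks, those at the limits, the widest, the farthest apart, the largest rank differences, the genes with most sites (all ties kept) and list genes with a site. Sites named for the strongest or widest partners (CrebB, Top1, Pi4KIIIalpha, para, HUWE1, CG2120) were chosen after their values were seen. RpL37a was not matched to a gene, Egfr is not on the X, and ribosomal genes without an eligible base were left out. The planned limits on q were replaced by one on global IDR.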

Additional observations from a re-analysis of the deposited data

How the results depend on the processing

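The 9 summary results were recomputed under 17 other settings, 5 of them chosen after seeing the data, which gave 137 values. Of these, 121 stayed within the 95% interval of the reported value or, for counts, within 1.5 times of it. A stricter overlap, the nearest summit as partner and ranking by the second replicate call returned the reported values unchanged. Those values are part of the 121 and add nothing to it. The nearest-summit setting could change little, since only 2 sites overlapped several M1[wt] peaks. The number of sites ran from 432 to 813 and the number of genes from 284 to 553, and the median distance to the strongest peaks from 13065 to 15819 bases. With summits within 250 bases as the rule for sharing, 89.98% of summits lay within 100 bases, 97.5% of M1[wt] summits were in gene bodies and the median width was 712 bases. With 100 bases the values were 100%, which the rule fixes, 97.7% and 676.5 bases. Leaving out the 100 strongest peaks gave 11.5% of partners among the 200 strongest M1[wt] X peaks and a median wt strength of 22.8, and leaving out 300 gave 3.99%. At 200 bases from gene ends 95.9% of M1[wt] summits were in gene bodies, and at 1000 bases the median width was 718 bases. A global IDR of 0.01 or less gave median strengths of 51.2 in M1[wt] males and 24.7 in wt males. Without sites over 2000 bases wide, chosen after seeing the data, the median width was 715.5 bases. The second replicate call gave a median strength of 45.6 in M1[wt] males, and the first one of 26.4 in wt males. The cause of these shifts was not tested where the setting does not fix it. Planned measures of GA repeats and of position along the gene, with their alternative of the shortest against the longest gene, were not run, since sequence and strand were not used here. No paired analysis was possible because each group holds 1 sample. Unknown read depth limits every statement on strength and width.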
